A study of Zea mays with 4 samples.

Results

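Of 16102 probe sets on the maize array that are no controls and carry no gene in the platform annotation, 51 (0.317%) were higher in both CCR mutant arrays than in both WS arrays by the limits set for this group. The members were selected on the measured values themselves: the lower of the 2 CCR mutant values had to exceed the higher of the 2 WS values by at least 0.7 on the log2 scale, a distance called the gap here, and both CCR mutant values had to be at least 6. That the members are higher in the CCR mutant is therefore how they were chosen and not a result, and no test of it is given. The same limits applied the other way round, with WS as the higher group, found 24 probe sets without a gene (0.149%), and applied to the 1453 probe sets that have a gene they found 10 (0.688%). The values were made by the authors with GCRMA, which corrects probe brightness for background, and are taken as log2.

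Lignin is the aromatic polymer that stiffens the walls of vessels and fibres in the maize stem. It is built from monolignols, and cinnamoyl-CoA reductase (CCR) is the enzyme that commits phenolic CoA esters to monolignol synthesis. A probe set is a group of short probes designed from 1 maize sequence cluster, so it reports on a transcript whether or not that transcript has a named gene, and probe sets whose names share the number after Zm were designed from related sequences. No member is given a gene name or a role here.

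The tissue was young stacked internodes of maize plants with 6 to 7 leaves. The 2 CCR mutant samples came from single extracts of 144 and 182 µg RNA and had no treatment recorded. The 2 WS samples, whose name is not spelled out in the labels, were pools of an own extract of 185 and 215 µg with 3 other extracts of 1 µg each, and carry a drought entry of 36 h at an REW of 20 to 30%. Genotype, pooling and recorded treatment fall together and cannot be told apart. Growth conditions were shared, with 16 h of light at 25 °C and nights at 22 °C. Each sample was put on 1 array, so n = 2 for every mean and SD, and whether the 2 samples per group derive from different plants is not given. The probe set of the CCR gene cncr1 read 10.99 and 10.13 on the WS arrays, above the 8.59 and 9.14 of the CCR mutant arrays.

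Markers of the stem were present: all 9 probe sets found for the stem and shoot meristem list were at 3.5 or more on an array. Among them were the secondary wall cellulose synthases CesA10, CesA11 and CesA12 and the meristem homeobox gene kn1, but also cncr1 itself, pal1 and cad2. The summed linear signal of the list was between 14802 and 19276 in WS and between 13421 and 16325 in the CCR mutant. On every array pal1 (12.29 to 12.59) and cad2 (11.71 to 12.20) were the brightest of the list. They weigh most in the sum, which is no measure of the cellulose synthases and kn1 alone. Several markers of flower and inflorescence were higher in the CCR mutant arrays. Of 22 symbols in that list 18 were found, on 17 probe sets. Of the 12 at 3.5 or more on an array, 11 were higher in both CCR mutant arrays than in both WS arrays, where 14.0% of all such probe sets were. Some of these 12 reached 3.5 only on CCR mutant replicate 1, so this limit itself favours a higher CCR mutant. They were Zm.13250.1.S1_at (zmm8 and zmm14), Zm.14912.1.S1_s_at (M7), Zm.292.1.S1_at (bde1) and Zm.3907.1.S1_at (zmm2). For bde1 and zap1 the groups lay only 0.02 apart. The summed signal of the list lay between 451 and 687 on the WS arrays and between 1408 and 2097 on the CCR mutant arrays, while the carpel and stamen gene zag1 and the carpel gene zag2 stayed below 2.40 on all arrays. The part of these markers in the values of the members below was not tested. In RNA from whole internodes, more cells of a type and more RNA per cell cannot be told apart.

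The members spanned nearly the whole range of the array. Their values ran from 1.70 to 11.32 in WS replicate 1, from 1.71 to 10.63 in WS replicate 2, from 6.23 to 13.24 in CCR mutant replicate 1 and from 6.02 to 12.46 in CCR mutant replicate 2. The median over members was 5.49 on each WS array, against 8.73 and 8.63 on the CCR mutant arrays, and the 4 arrays had medians between 6.56 and 6.62 over all probe sets that are no controls. The measured difference of the group means, which is no exact change where a WS array is at background, was between 0.81 and 7.64, with a median of 2.60, where all 16102 probe sets without a gene had a median of 0.02. The gap was under 1 in 15 members, from 1 to under 2 in 14, from 2 to under 4 in 10 and over 4 in 12.

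**Figure D1:**
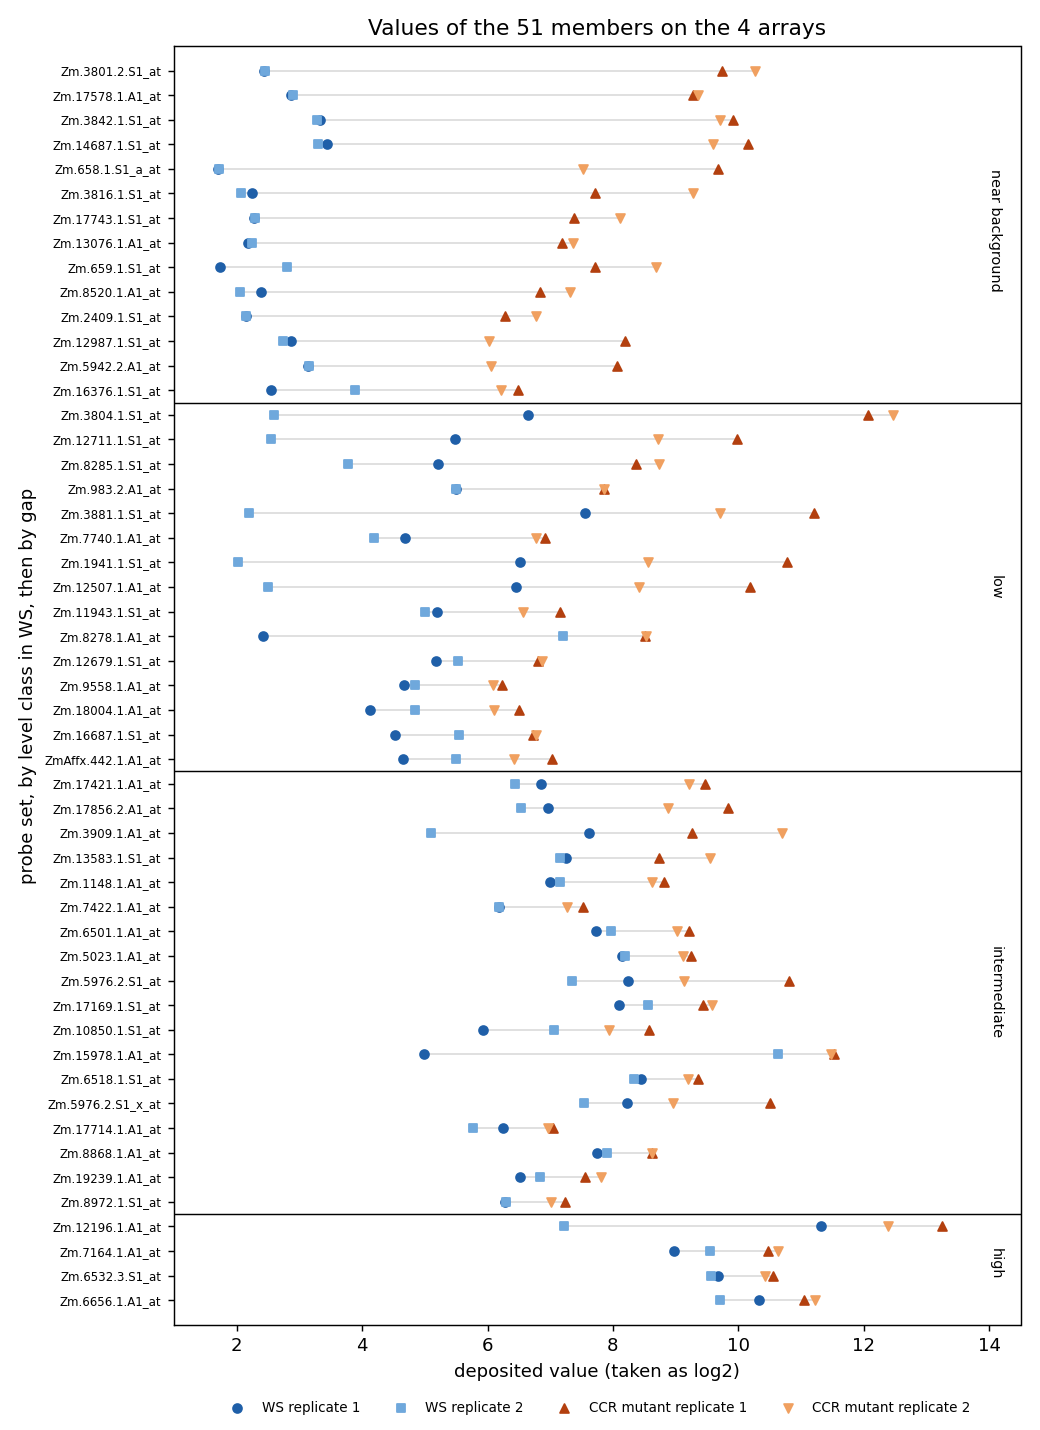
Deposited values (taken as log2, horizontal axis) of each of the 51 members on the 4 arrays, 1 row per probe set and 1 symbol per array, sorted by level class in WS and then by gap. The top block of 14 members sits at 1.70 to 3.88 on the WS arrays and above 6 on the CCR mutant arrays, and 9 members in the 3 lower blocks have WS arrays more than 2 units apart.

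**Figure D2:**
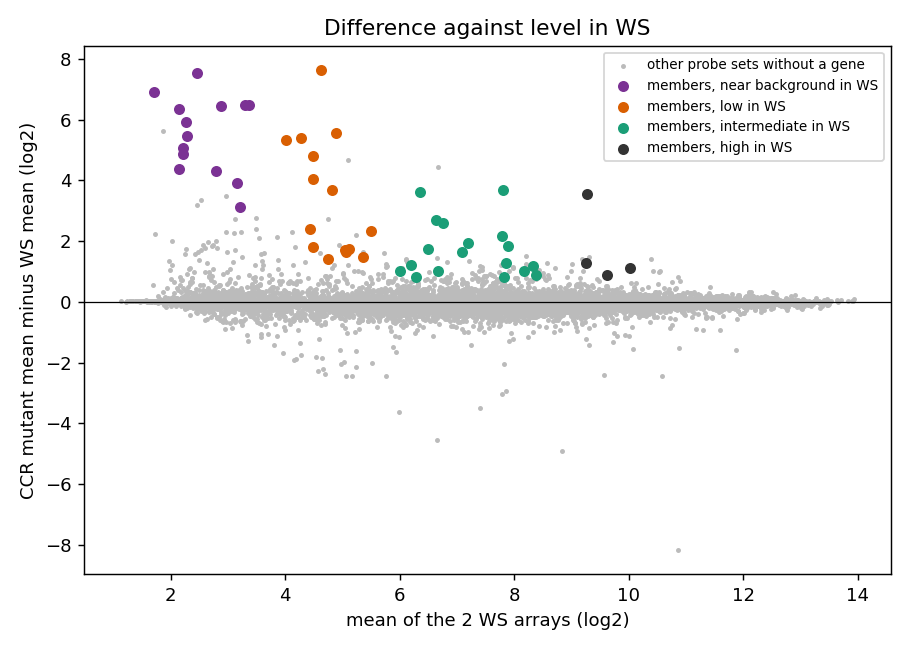
Difference of the group means (CCR mutant minus WS, log2, vertical axis) against the mean of the 2 WS arrays (log2, horizontal axis) for the 16102 probe sets without a gene, 1 point each, with the members coloured by their level class in WS. The measured differences of members reach 7.64 where WS is near background or low and stay at or under 3.69 where it is intermediate or high.

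By their mean in WS the members fell into 14 near background (below 3.5), 15 low (3.5 to under 6), 18 intermediate (6 to under 9) and 4 high (9 or more). Of all probe sets without a gene, 35.7% were near background, 10.8% low, 31.2% intermediate and 22.2% high, against 27.5%, 29.4%, 35.3% and 7.8% of the members. The limit of 6 in the CCR mutant shapes these shares, since a probe set near background in WS had to differ by far more than 0.7 to be counted. Only 8467 of the probe sets without a gene were at 6 or more on both CCR mutant arrays and could be members. Among these 8467, 14 had a WS mean near background, and all 14 are members. The shares therefore do not show that a class holds more or fewer members than others. The median difference was 2.41 for low, 1.46 for intermediate and 1.20 for high members. For members near background it was at least 4.91, with WS values below the level of the reporter probe sets, described next, raised to that level.

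The 14 members near background in WS had little or no signal there and clear signal in the CCR mutant. Background was judged by the 66 reporter probe sets, which target no maize gene. One of them was bright on every array, and the second highest, taken as the reporter level, was at 3.06 and 3.07 on the WS arrays. In 10 of the 14 both WS values were at or below it. Each CCR mutant mean was set against that level, or against the member's own WS value where it was higher. By this measure these members were higher in the CCR mutant by at least 2.88 to 6.94 on the log2 scale. That is at least 7.34-fold to at least 122-fold. Their means in the CCR mutant had a median of 7.97 and were at least 6.35.

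The member with the largest gap was Zm.3801.2.S1_at, at 2.44 and 2.45 in WS and at 9.74 and 10.26 in the CCR mutant. Its CCR mutant mean was at least 122-fold higher. Zm.17578.1.A1_at was at 2.87 and 2.89 in WS and at 9.28 and 9.36 in the CCR mutant, where its mean was at least 76.4-fold higher. Zm.3842.1.S1_at was at 3.33 and 3.28 in WS and at 9.91 and 9.70 in the CCR mutant. Its WS values lay above the reporter level, and its measured group means differed 90.5-fold. In all 3 the arrays of a group lay within 0.52 of each other, far less than the gaps of 6.37 to 7.29 between the groups.

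Not all members of this class were so even, as examples chosen after their values were seen show. Zm.658.1.S1_a_at was at 1.70 and 1.71 in WS, but at 9.68 and 7.53 in the CCR mutant. Zm.12987.1.S1_at was at 2.86 and 2.73 in WS and at 8.19 and 6.02 in the CCR mutant, and Zm.5942.2.A1_at at 3.14 and 3.15 against 8.07 and 6.05. In these 3 the CCR mutant arrays differed by 2.02 to 2.17 from each other, with replicate 1 the higher, although both stayed well above WS. Zm.3816.1.S1_at, at 2.24 and 2.06 in WS, went the other way between the CCR mutant arrays, with 7.71 and 9.28. The WS arrays agreed within 0.05 in 7 of the 14 and lay at most 1.33 apart, in Zm.16376.1.S1_at (2.55 and 3.88 in WS, 6.48 and 6.21 in the CCR mutant).

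In 6 of the 15 low members the WS arrays lay more than 2 units apart, and in the other 9 they did not. Zm.3804.1.S1_at, with the largest gap of the class, was at 6.64 in WS replicate 1 and at 2.60 in WS replicate 2, and at 12.06 and 12.46 in the CCR mutant, where it was among the brightest members. Zm.12711.1.S1_at was at 5.48 and 2.54 in WS and at 9.98 and 8.72 in the CCR mutant. Zm.8285.1.S1_at was less divided, at 5.21 and 3.77 in WS against 8.37 and 8.74 in the CCR mutant. For the first 2 of these the mean of WS describes neither array, since 1 array showed signal and the other lay below the reporter level.

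Over all classes 9 members, chosen here after their values were seen, had WS arrays more than 2 units apart. In 7 of the 9 WS replicate 1 was the higher: Zm.3804.1.S1_at and Zm.12711.1.S1_at above, and 5 more. Zm.3881.1.S1_at was at 7.56 and 2.20 in WS and at 11.21 and 9.70 in the CCR mutant. Zm.1941.1.S1_at was at 6.52 and 2.02 against 10.78 and 8.56, and Zm.12507.1.A1_at at 6.46 and 2.50 against 10.19 and 8.41. Zm.3909.1.A1_at was at 7.62 and 5.09 against 9.26 and 10.70, and Zm.12196.1.A1_at at 11.32 and 7.22 against 13.24 and 12.39. The medians of these 7 were 6.64 and 2.54 in WS against 10.78 and 9.70 in the CCR mutant, an order of the groups and of the WS arrays that the choice of these 7 fixes.

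In the other 2 of the 9, WS replicate 1 was the lower array. Zm.15978.1.A1_at had the widest pair of all members, at 4.98 and 10.63 in WS, with 11.53 and 11.47 in the CCR mutant. Zm.8278.1.A1_at was at 2.42 and 7.21 in WS, with 8.51 and 8.53 in the CCR mutant. Both had CCR mutant arrays within 0.06 of each other, and a gap to the nearer WS array (0.83 and 1.29) that was a small part of the distance between the WS arrays. Over all probe sets without a gene, 71 had WS arrays more than 2 units apart, with replicate 1 the higher in 29 and replicate 2 in 42. Without the 9, the other 42 members had a median difference of 1.89.

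Of the 10 probe sets with a gene that met the same limits, 1 had WS arrays more than 2 units apart. It belongs to the transcript named MZm3-3 in RefSeq, known from maize anthers, and was at 9.44 and 2.54 in WS, with 12.81 and 11.60 in the CCR mutant. It was singled out after its values were seen, and whether it and the members come from the same cells was not tested.

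**Figure D3:**
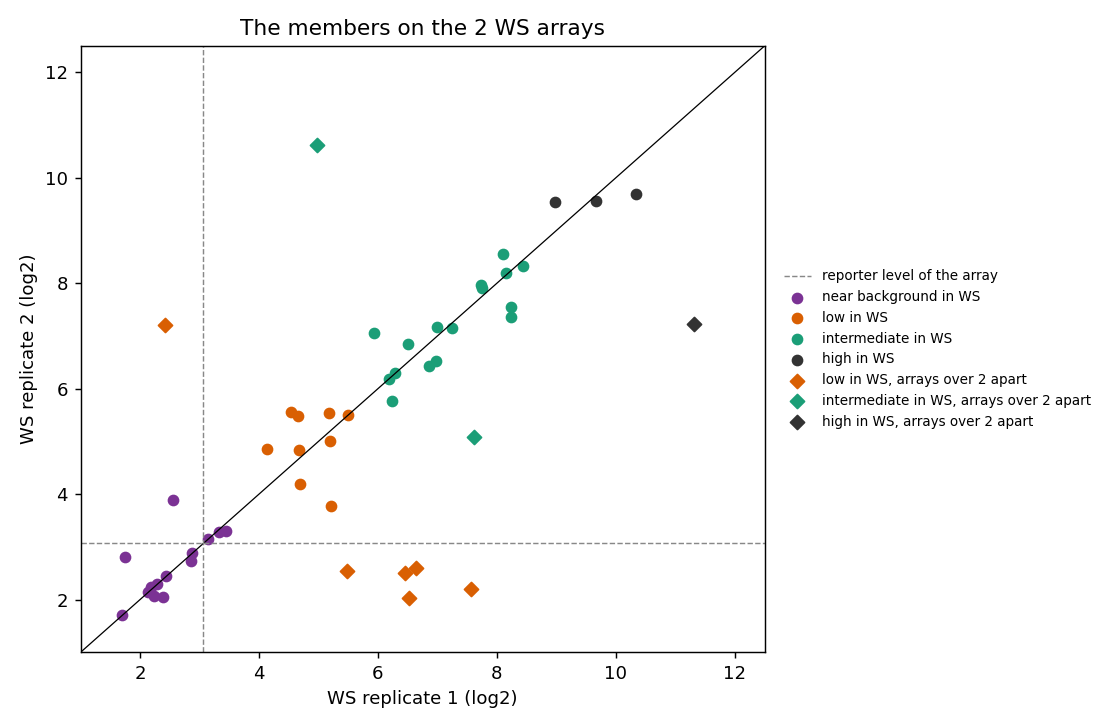
Value of each member on WS replicate 1 (horizontal axis, log2) and WS replicate 2 (vertical axis, log2), coloured by level class in WS, with a diagonal of equal values and dashed lines at the reporter level of each array (3.06 and 3.07). Diamonds mark the 9 members whose WS arrays lie more than 2 units apart, of which 7 fall below the diagonal and 2 above it.

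The 18 intermediate members were expressed in both groups and differed by 0.81 to 3.69. Zm.17421.1.A1_at, with the largest gap of this class, was at 6.86 and 6.43 in WS and at 9.46 and 9.21 in the CCR mutant, which put the means apart by 2.69 (6.64 ± 0.30 against 9.34 ± 0.18, mean ± SD, n = 2) or 6.45-fold. Zm.17856.2.A1_at was at 6.97 and 6.53 in WS and at 9.83 and 8.87 in the CCR mutant, which put the means apart by 2.60. The third by gap was Zm.3909.1.A1_at, one of the divided members above. In the first 2 of these the gaps of 2.35 and 1.90 were wider than either pair of replicates.

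Of the 4 high members, 3 had group means 0.88 to 1.29 apart and the fourth was the divided Zm.12196.1.A1_at. Zm.7164.1.A1_at was at 8.98 and 9.54 in WS and at 10.47 and 10.64 in the CCR mutant, which put the means apart by 1.29. Zm.6532.3.S1_at was at 9.67 and 9.56 in WS and at 10.56 and 10.42 in the CCR mutant, which put the means apart by 0.88. Zm.6656.1.A1_at was at 10.33 and 9.70 in WS and at 11.04 and 11.22 in the CCR mutant, with a gap of 0.71. In these 3 the groups lay 0.71 to 0.93 apart, close to the minimum that the limits set.

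How far the gap stands out from the replicates differed among members. In 41 of the 51 the gap was wider than the larger of the 2 replicate differences, and in 10 it was not: 7 of the 9 divided members, both probe sets of Zm.5976 and Zm.10850.1.S1_at. The median replicate difference of the members was 0.36 between WS arrays and 0.37 between CCR mutant arrays, against 0.13 and 0.11 for the probe sets without a gene that were at 6 or more on both arrays of the group. In WS these probe sets are brighter than many members, of which 14 were near background and 15 low. A replicate difference of at least 0.7, the size of the smallest gap allowed, was found in 3.84% of those bright probe sets in WS and in 2.82% in the CCR mutant. CCR mutant replicate 1 was the higher array in 30 members, replicate 2 in 20, and the deposited values were identical in all their decimals in 1 (Zm.983.2.A1_at, at 5.49 and 5.50 in WS and 7.85 on both CCR mutant arrays). Those of Zm.8868.1.A1_at, 8.63 on both, were equal only to 2 decimals. Of the 11 members whose CCR mutant arrays differed by more than 1, replicate 1 was the higher in 9. Of all 108 probe sets without a gene at 6 or more on both CCR mutant arrays that differed by more than 1 there, replicate 1 was the higher in 51.9%.

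At the edge of the limits the values run on without a break. The 3 members with the smallest gaps were Zm.6656.1.A1_at (0.71, values above), Zm.8972.1.S1_at (0.71, with 6.28 and 6.30 in WS against 7.23 and 7.01 in the CCR mutant) and Zm.19239.1.A1_at (0.72, with 6.51 and 6.84 against 7.56 and 7.81). Just outside were Zm.8997.1.A1_at and Zm.6281.1.A1_at, with gaps of 0.66 each, and Zm.17366.1.S1_s_at, with 0.65. Below the level limit Zm.7741.2.A1_a_at was left out with a gap of 2.25 (3.59 and 3.38 in WS, 6.66 and 5.84 in the CCR mutant), Zm.8261.1.A1_at with 0.95, and Zm.12511.1.S1_at with 3.93 (1.86 and 1.87 against 9.17 and 5.79). The lowest CCR mutant value among the members was 6.02, in Zm.12987.1.S1_at.

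The 51 members carry 50 different Zm numbers. The one number with 2 members was Zm.5976. Its members were Zm.5976.2.S1_at, at 8.24 and 7.35 in WS against 10.81 and 9.14 in the CCR mutant, and Zm.5976.2.S1_x_at, at 8.23 and 7.54 against 10.50 and 8.96. These probe sets bear the same 2 numbers in their names, so they may share probes and are not independent readings. The 2 other probe sets of Zm.5976 also had higher means in the CCR mutant, with Zm.5976.1.S1_a_at at 9.26 and 8.77 against 10.84 and 9.66 and Zm.5976.1.S1_at at 8.72 and 8.30 against 9.95 and 8.77. All 4 probe sets of this number thus had the same order of arrays, from WS replicate 2 to CCR mutant replicate 1.

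For 37 members the array holds no other probe set of the same number. The 14 others, with 13 numbers, had 25 further probe sets, of which 16 had a higher mean in the CCR mutant and 8 a lower one. Of these 25, 8 stayed below 3.5 on all arrays. All 8 were higher in the CCR mutant, by at most 0.09, but so were 93.0% of the 5955 probe sets of the array that stayed below 3.5, whose medians were 2.13 and 2.14 in WS against 2.18 and 2.17 in the CCR mutant. The 17 that reached 3.5 are therefore the ones to read. Of them 8 had a higher mean in the CCR mutant, and their median difference was 0.00. In 4 the groups did not overlap, with the CCR mutant higher, where 14.0% of all probe sets at that level did so. However, 9 of the 17 carry 1 number, Zm.6532, beside a single member, and 0 of those 9 are among the 4. Both further probe sets of Zm.5976 are among the 4. The 17 are thus not independent readings, and their median rests largely on Zm.6532. These 25 probe sets come from the same arrays and the same contrast as the members, so they are described and not tested.

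Probe sets of 1 number often differed from each other, as examples chosen after their values were seen show. Zm.14687.1.S1_at was at 3.44 and 3.30 in WS and at 10.15 and 9.59 in the CCR mutant, while Zm.14687.1.S1_s_at was bright in both groups, at 10.77 and 10.28 against 11.78 and 11.23, a difference of 0.98. For Zm.5942 the member stood near background in WS, whereas Zm.5942.1.A1_at was at 8.94 and 8.90 in WS against 8.76 and 8.71 in the CCR mutant. Zm.17856.1.A1_at was at 12.29 and 12.46 against 12.32 and 12.27, beside a member that differed by 2.60.

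The member of Zm.983 likewise differed by 2.35 beside 2 brighter probe sets, which differed by -0.09 and 0.30. Zm.3801, Zm.658, Zm.3816, Zm.3881, Zm.10850 and ZmAffx.442 each had 1 member with signal in the CCR mutant while every other probe set of the number stayed below 3.5 on all 4 arrays. The members of Zm.10850 (5.93 and 7.06) and ZmAffx.442 (4.65 and 5.49) had signal in WS too. That of Zm.3881 had it on WS replicate 1 (7.56). In 5 of the 6 numbers (all but Zm.658) a silent partner has the same 2 numbers as the member and the opposite letter, A or S, in its name. In Zm.3801 a partner with the same 2 numbers and the same letter was silent too. The meaning of the letters is not stated in the annotation.

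The annotation names a gene for probe sets of 2 of the numbers. In Zm.6532 the probe sets Zm.6532.1.A1_at and Zm.6532.1.A1_a_at are paired with asr1, a gene of the family induced by abscisic acid, stress and ripening. They were at 12.04 and 12.21 in WS against 11.64 and 12.40 in the CCR mutant, and at 12.85 and 12.40 against 12.88 and 12.85. All 9 probe sets of this number other than the member differed by -0.11 to 0.24, and 0 of the 9 had groups that did not overlap with the CCR mutant higher, while the member Zm.6532.3.S1_at differed by 0.88. In Zm.13583 the member was at 7.25 and 7.15 in WS against 8.73 and 9.55 in the CCR mutant, and Zm.13583.2.S1_at, paired with the gene LOC732724, at 10.25 and 9.85 against 10.06 and 10.04. The names belong to those probe sets and are not carried over to the members.

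**Figure D4:**
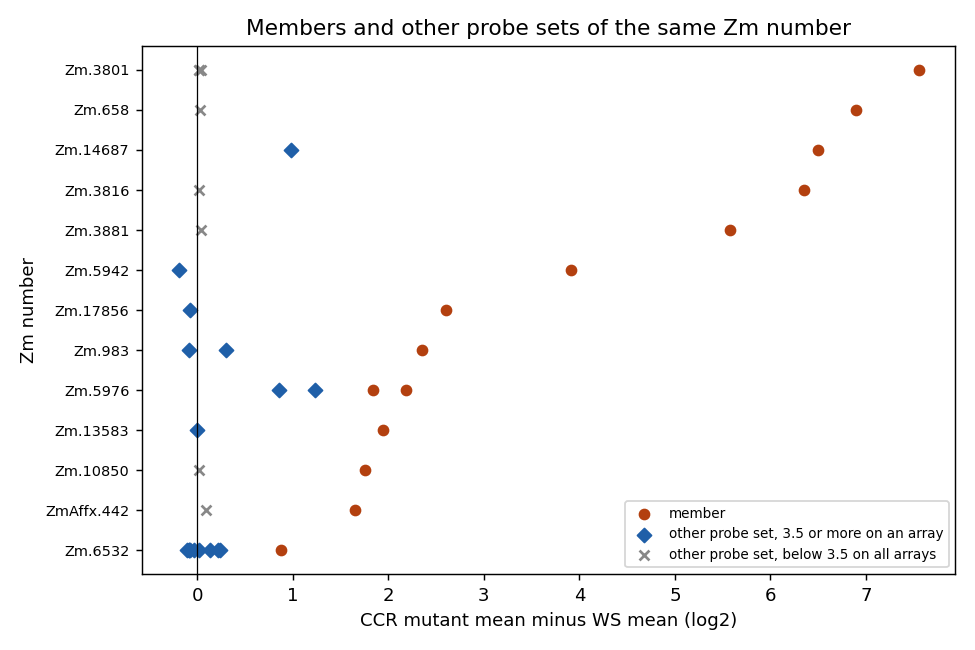
Difference of the group means (CCR mutant minus WS, log2, horizontal axis) for the members (circles) and the other probe sets (diamonds and crosses) of the 13 Zm numbers with more than 1 probe set, 1 row per number. The other probe sets lie between -0.19 and 1.23, and the measured differences of the members between 0.88 and 7.55.

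Parts of the members' names were counted too. The limits did not use names, but the level limit of 6 can alter such shares. The letter S stood in 26 of the 51 names, against 37.6% of all probe sets without a gene and 35.7% of those at 6 or more on both CCR mutant arrays. It stood in 10 of the 14 members near background in WS, and the share of S among all probe sets near background is not given here. The median gap was 2.23 for members with S and 1.25 for those with A. The gap is the value the members were chosen by, and the level limit required a large one near background. Only 1 member, ZmAffx.442.1.A1_at (4.65 and 5.49 in WS, 7.02 and 6.42 in the CCR mutant), has a ZmAffx name, which 13.4% of the probe sets without a gene have. Names ending in plain _at made up 49 of the 51 members and 88.3% of the probe sets without a gene. For ZmAffx names and for endings no share among probe sets at 6 or more on both CCR mutant arrays is given here. These are counts with no test.

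Some members stood close together in the numbering, a pattern that was looked for after the names had been seen. In blocks of 100 Zm numbers, 155 of 194 blocks held no member, 33 held 1, 3 held 2, 2 held 3 and 1 held 5. That block, from 3800 to 3899, has 121 probe sets, so 4.13% of them were members, where 0.317% of all probe sets without a gene were. The 121 also count probe sets with a gene, which cannot be members, so the 2 shares have unlike bases. Its 5 members (Zm.3801.2.S1_at, Zm.3804.1.S1_at, Zm.3816.1.S1_at, Zm.3842.1.S1_at and Zm.3881.1.S1_at) were all at or below 3.33 on at least 1 WS array. With WS values below the reporter level raised to it, they were higher in the CCR mutant by at least 5.14 to 7.41. The other 78 probe sets of the block at 3.5 or more on an array had a median difference of -0.01 and lay between -0.41 and 1.57.

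Zm.658.1.S1_a_at and Zm.659.1.S1_at (1.74 and 2.80 in WS, 7.71 and 8.69 in the CCR mutant) bear neighbouring numbers too. How numbers were given to clusters is not stated in the sources used here.

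**Figure D5:**
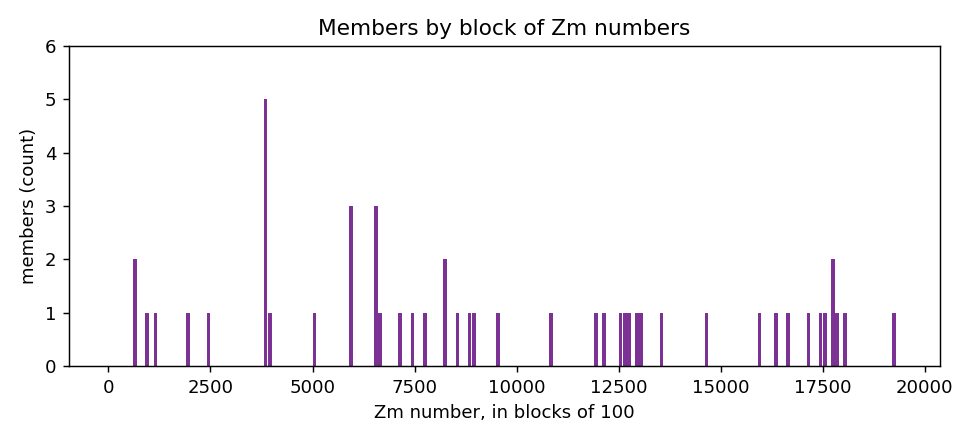
Number of members (vertical axis) in each block of 100 Zm numbers (horizontal axis), 1 bar per block; the ZmAffx member is not shown. The tallest bar, with 5 members, is the block from 3800 to 3899, and no other block holds more than 3.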

How the data were processed

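RNA of 2 WS and 2 CCR mutant internode samples was put on Affymetrix maize arrays (1 each) after amplification, at 20 µg an array, per the labels' protocols. The authors' deposited values come from GCRMA, per the submitters' processing notes (version not given in the sources used here), and are taken as log2, a base that the table does not state. They were not normalized again. From 17734 probe sets, 179 controls were left out. Gene pairing is that of the platform annotation of 2007, updated by gene ID through RefSeq names (assembly Zm-B73-REFERENCE-NAM-5.0). No probe sequences were used here.

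Members, level classes, replicate differences and probe sets of the same Zm number were computed in Python 3.11.15 (pandas 2.3.3, numpy 2.4.6), and repeated quantile normalization in R 4.3.3 with limma 3.58.1. The rule was checked on simulated data with a planted difference far above the replicate spread. That checks the code and says nothing about these arrays. All 4 arrays entered the choice of members, so no contrast was tested. Members, lists and named probe sets were chosen with earlier results of these data known. Named are the 3 largest gaps per level class, members that share a number, partners with a gene, the extremes of replicate difference and the edges of the limits, with the additions stated beside them. Of the marker lists, dividing cells had a median difference of -0.37 over 11 probe sets. Of these 11, 5 were higher in both WS arrays than in both CCR mutant arrays, and 0 the other way. The share of all probe sets higher in both WS arrays is not given here. The median difference was 0.15 over 11 for photosynthetic leaf, 0.03 over 9 for endosperm and embryo and 0.25 over 1 for root. For anther and pollen only 1 of 8 symbols was found, C5, at 1.96 to 2.00. Its difference of 0.03 therefore tells nothing about anther cells. The number of arrays limits the precision. Alternatives were other limits, centring, quantiles, pairs, group means, a floor and leaving out each array.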

Additional observations from a re-analysis of the deposited data

How the results depend on the processing

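The count of members was 76 with a minimum gap of 0.5, 36 with 1.0, 61 and 38 with minimum levels of 5 and 7, 71 with none, 54 with median-centred arrays, 52 with repeated quantile normalization, 50 without probe sets ending in _s_at or _x_at and 51 with values below 4 set to 4. It rose to 142 with a difference of means of at least 0.7, and to between 95 and 137 with 1 array left out (137 when WS replicate 1 was dropped, 95 for WS replicate 2, 99 for CCR mutant replicate 1 and 136 for CCR mutant replicate 2), as fewer arrays have to agree. With the replicate number as a replicate block, that is with both same-numbered differences at least 0.7, it was 76, and the members' median difference, taken as the lower of their 2 paired differences, was 1.79. The labels do not say that a number marks a shared batch or plant. The median of 2.60 otherwise stayed between 2.35 and 2.91. The count of 14 near background was 10 to 18 under other limits or with an array left out. Of the further probe sets of the members' numbers 16 had higher means in the CCR mutant, 8 of 17 at 6 or more on at least 2 arrays, and 7 of 7 that share both numbers with a member, of which 6 were below 3.5 on all arrays.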

Other observations

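The deposited table gives 1996 of the 17555 probe sets that are no controls with more than 2 decimals and the rest with at most 2, and the members hold more of the former: 17 of 51 (33.3%) against 11.4% of all probe sets without a gene. In 1762 of the 1996 the replicates of at least 1 group differed by less than 0.005, and in the other 234 those of a group differed by more than 1.37, the largest difference between CCR mutant replicates among probe sets with at most 2 decimals (in WS those reached 1.60). Of the 17 members, 15 had a replicate difference over 1.37, the 9 divided members among them, and 2 had a difference under 0.005 in a group and none over 1.37. The median measured difference between the groups was 3.91 for these 17 and 1.76 for the other 34. How the authors came to write these values differently is not stated in the sources used here.

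The 10 probe sets with a gene that met the same limits are the MADS-box genes sts1, zmm29 and si1, M7, MZm3-3, the aquaporin SIP1-2, the asparagine synthetase asn1, the histidine phosphotransfer protein HP1, an alternative oxidase gene and the beta-amylase BMY1. Their gaps ran from 2.60 for sts1 to 0.74 for BMY1, and 0 of the 10 had a WS mean near background. How many of all 1453 probe sets with a gene lie near background is not given here. The count therefore cannot be set against the 14 of the 51 members.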
